A study of Homo sapiens with 10 samples.

Results

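Short cassette exons were taken as all distinct middle exons of the exon events in 8 deposited MISO tables whose length was 60 bp or less, and 339 of the 2969 distinct middle exons (11.4%) met this limit. They lie in 328 genes, range from 3 to 60 bp with a median of 47 bp, and 51 of them are 30 bp or shorter. The RNA-seq was made from C33A cells, a human cervical carcinoma line described by the study as deficient in SWI/SNF, 48 h after transient transfection with 1 of 5 plasmids. The control cells received the empty vector pOPRSVI, and the ATPase groups received pBJ5-BRG1 (BRG1-wt), pBJ5-BRG1-K798R (BRG1-mut), pCG-hBrm (BRM-wt) or pCG-hBrm-K798R (BRM-mut), where K798R changes the ATPase domain. Each group had 2 replicates, and the labels do not say whether they came from separate cultures. The comparison is of added ATPase in 1 deficient line, and pOPRSVI is not the backbone that the ATPase plasmids are named for, so vector and ATPase cannot be told apart.

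The PSI (percent spliced in, given here as a fraction between 0 and 1) is the share of transcripts of an event that contain the middle exon. Each table pairs 1 ATPase library with 1 control library, that of its own replicate, and lists only events with a MISO Bayes factor above 10, so a PSI is known only where a change was called. An exon that is missing from a table is therefore neither shown to be unchanged nor measured there. With 2 libraries against 2, an exact permutation test cannot give a p below 0.333, and a listed change had already passed the authors' threshold, so values are described here without p-values. The direction of change can be compared between replicates, which have separate control libraries, but only where both tables list the exon, so each of the compared changes had passed the threshold. The reads behind a PSI value are unknown, and no counting interval can be given.

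Short exons are a special case for the spliceosome. Most vertebrate exons are recognised as a unit by factors bound at both of their ends, and a very short exon leaves little room for this and for exonic enhancers, so that strong splice sites and intronic elements carry more of the recognition. Very short exons, called microexons, are best known from neurons and muscle, where SRRM4, SRRM3, RBFOX and PTBP proteins regulate them, and they often preserve the reading frame and add a few amino acids to a protein interaction surface.

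The exons that recur in the results are shown with the last 20 intron bases before them and the first 10 after them, in lower case, and the exon in capitals. They were read from the GRCh37 genome, 5′ to 3′ on the strand of the gene. The first set holds exons of 23 bp or less that were listed in several tables, and it shows how little sequence the spliceosome has to define.
PHB2 (chr12:7075074-7075079, minus strand, 6 bp): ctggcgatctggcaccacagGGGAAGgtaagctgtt
RPL41 (chr12:56510973-56510995, plus strand, 23 bp): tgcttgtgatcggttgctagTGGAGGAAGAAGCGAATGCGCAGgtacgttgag
VPS29 (chr12:110937340-110937351, minus strand, 12 bp): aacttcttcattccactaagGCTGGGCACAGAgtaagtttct
RTRAF (chr14:52470958-52470960, plus strand, 3 bp): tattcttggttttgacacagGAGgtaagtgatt
IMMT (chr2:86380683-86380697, minus strand, 15 bp): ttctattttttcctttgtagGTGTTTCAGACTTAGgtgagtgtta
BRCC3 (chrX:154300602-154300618, plus strand, 17 bp): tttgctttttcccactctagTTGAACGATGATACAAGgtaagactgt
DST (chr6:56333780-56333797, minus strand, 18 bp): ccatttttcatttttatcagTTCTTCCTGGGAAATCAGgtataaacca
COMMD6 (chr13:76111800-76111811, minus strand, 12 bp): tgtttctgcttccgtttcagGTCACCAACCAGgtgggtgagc
PTS (chr11:112100931-112100953, plus strand, 23 bp): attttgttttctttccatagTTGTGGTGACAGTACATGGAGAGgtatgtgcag

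The second set holds longer members whose PSI changed in one direction in both replicates of a group.
CKAP2L (chr2:113518290-113518341, minus strand, 52 bp): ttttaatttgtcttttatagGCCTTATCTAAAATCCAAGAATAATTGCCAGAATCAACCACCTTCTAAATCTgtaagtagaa
SELENOF (chr1:87333736-87333785, minus strand, 50 bp): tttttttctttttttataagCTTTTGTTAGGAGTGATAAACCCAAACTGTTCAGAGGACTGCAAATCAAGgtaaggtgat
HNRNPD (chr4:83292681-83292737, minus strand, 57 bp): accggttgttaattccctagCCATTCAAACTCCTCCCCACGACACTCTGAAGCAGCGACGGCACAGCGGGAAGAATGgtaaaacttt

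All of these have the coordinates of an annotated exon that is coding in at least 1 transcript of GENCODE. The exons of PHB2, VPS29, RTRAF, IMMT, DST, COMMD6 and HNRNPD are multiples of 3 and keep the reading frame when skipped, whereas those of RPL41, BRCC3, PTS, CKAP2L and SELENOF are not. Each starts after AG and ends before GT.

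Each transfected gene was highest in the tables of its own plasmids. SMARCA4, the BRG1 gene, had an authors' base mean (the mean of the normalised counts over the 4 libraries of a table) of 25802 and 29824 in the tables of BRG1-wt and BRG1-mut, against 3864 with BRM-wt and 3076 with BRM-mut. SMARCA2, the BRM gene, had base means of 12.6 and 9.33 in the BRG1 tables and 59658 and 75591 in the BRM tables. Of the epithelial genes, KRT8 and KRT18 had base means between 90.8 and 696. EPCAM was between 22.6 and 30.2 and CDH1 between 3.05 and 6.27, so these epithelial adhesion markers were low in this carcinoma line. The mesenchymal filament gene VIM was between 11103 and 12049, whereas the mesenchymal cadherin gene CDH2 was only between 82.1 and 96.3. Among the regulators of microexons, SRRM4 was near 0 (0.235 to 0.25) and SRRM3 lay between 55.6 and 84.0.

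The tables listed between 42 short exons (BRG1-wt replicate 2) and 79 (BRG1-wt replicate 1). Short exons made up between 7.83% (BRM-wt replicate 2) and 13.8% (BRM-mut replicate 2) of the exons of a table. The median absolute change in PSI of short exons lay between 0.19 and 0.31 in the 8 tables, against 0.22 to 0.29 over all exons. In 1 table alone, 227 of the 339 exons were listed (67.0%, against 62.3% of all exons), 63 were listed in 2 tables, 35 in 3 and 14 in 4 or more. By group, 234 were listed for a single ATPase (69.0%, against 64.6% of all exons) and 7 for all 4.

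The 5 short exons listed in 5 or more tables were those of PHB2, RPL41, DIAPH2, MYL6 and VPS29. In 3 of them the 2 control libraries were far apart.

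PHB2 encodes prohibitin 2, a scaffold protein of the inner mitochondrial membrane, and its 6-bp exon 9 was listed in 7 tables. Its PSI was 0.88 in control replicate 1 and 0.01 in control replicate 2. In replicate 1 it was 1.00 in BRG1-wt, 0.01 in BRG1-mut and 1.00 in BRM-mut, and in replicate 2 it was 0.40 in BRG1-wt, 0.92 in BRG1-mut, 0.55 in BRM-wt and 0.99 in BRM-mut. Its 9 values thus spanned 0.01 to 1.00, and the gap between the controls, 0.87, was about as large as the greatest of the changes. The gene was abundant, with a base mean of 9530 averaged over the 4 expression tables.

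RPL41, a gene of the large ribosomal subunit with many processed copies in the genome, had a PSI of 0.49 in control replicate 1 and 0.01 in control replicate 2 for its 23-bp exon 2. The ATPase libraries lay between the controls, from 0.27 to 0.34, except for 0.01 in BRM-mut replicate 1. Reads of RPL41 may be shared with its copies, so its PSI values are uncertain.

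DIAPH2 encodes a formin, an actin nucleator. Its 21-bp exon, on chromosome X from 96018099 to 96018119, does not coincide with an annotated exon. The PSI was 0.12 in control replicate 1 and 0.43, 0.56 and 0.58 in the replicate 1 libraries of BRG1-wt, BRM-wt and BRM-mut. In replicate 2 the order was turned, with 0.51 in control, 0.06 for BRG1-wt, 0.09 for BRG1-mut and 0.05 for BRM-wt. The ATPase libraries of replicate 1 resembled the control of replicate 2, and those of replicate 2 resembled the control of replicate 1.

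VPS29, a subunit of the retromer that returns cargo from endosomes, was different in that its controls were alike. The 12-bp exon 2 had a PSI of 0.55 and 0.53 in the 2 controls. It was 0.42 in BRG1-wt replicate 2 and 0.41 in BRM-wt replicate 1, and at 0.01 or 0 in the replicate 2 libraries of BRG1-mut, BRM-wt and BRM-mut. All 5 listed ATPase values were below both controls. The 3 lowest share 1 control library and the replicate number.

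MYL6, the essential light chain of non-muscle myosin, had low values throughout for its 45-bp exon 6 (chromosome 12 from 56554410 to 56554454), which is partly coding. PSI was 0.07 and 0.10 in the controls, 0.13 and 0.14 for BRG1-wt, 0.13 for BRG1-mut replicate 1, and 0.14 and 0.06 for BRM-wt.

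**Figure D1:**
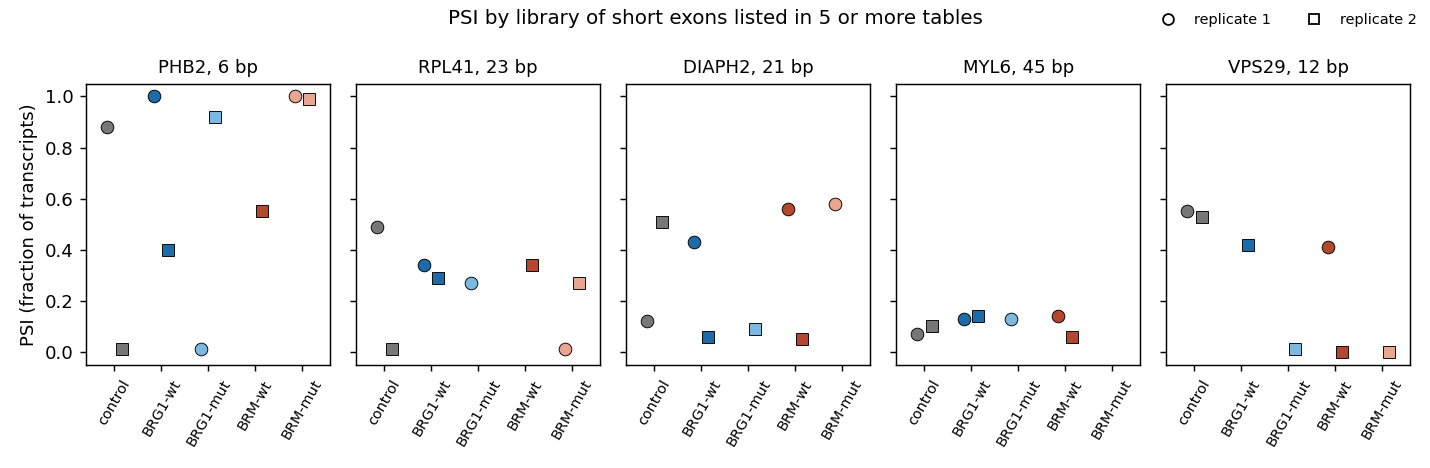
PSI (vertical axis, fraction of transcripts with the exon) of the 5 short exons listed in 5 or more tables, by group (horizontal axis). Circles are replicate 1 and squares replicate 2, and a missing symbol means that the exon was not listed for that library. The 2 grey control points are 0.87 apart for PHB2, 0.48 for RPL41 and 0.39 for DIAPH2, but 0.02 for VPS29 and 0.03 for MYL6.

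For BRG1-wt, 112 short exons were listed, among 947 exons of any length that were 31.9% of all exons listed. PSI was higher than control for 50 of the short exons and lower for 60, and 2 (BMAL2 and SNHG29) had equal and opposite changes in the replicates. The share that was higher was 44.6%, against 55.9% over all exons listed for this group. The median change was 0.343 among the higher and -0.195 among the lower exons. By replicate, 41 of 79 exons were higher in replicate 1 and 15 of 42 in replicate 2.

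In both replicates of BRG1-wt, 9 short exons were listed (8.04%, against 6.02% of all exons of the group). Of these 9, 3 moved in one direction. Over all exons listed in both replicates this share was 52.6%. HNRNPD encodes an hnRNP protein that binds AU-rich elements and regulates mRNA decay, and its 57-bp exon 2, which some protein forms lack, had a PSI of 0.83 in both controls and 0.78 and 0.79 with BRG1-wt. Its mean change was -0.045 ± 0.00707 (SD, n = 2), small but larger than the difference between replicates. MYL6 was higher by 0.050 ± 0.0141 (SD, n = 2). The PHB2 exon was higher in both replicates, from 0.88 to 1.00 and from 0.01 to 0.40, but its values overlap those of the controls. The groups did not overlap for 2 of the 9 (HNRNPD and MYL6), and this held for 42.1% of all exons listed in both replicates.

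The other 6 moved in opposite directions. BMAL2, a circadian transcription factor gene, had a PSI of 0.58 in control and 0.15 in BRG1-wt in replicate 1 for its 42-bp coding exon 4 (chromosome 12 from 27529279 to 27529320). In replicate 2 it went the other way, from 0.14 to 0.57. DIAPH2 and RPL41 also changed by over 0.1 in both replicates, as given above. For USO1, SNHG29 and HNRNPA1 all 4 values lay between 0 and 0.12.

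Among short exons listed in 1 replicate only, the largest changes in BRG1-wt were in exons of very different length. BRCC3 encodes a deubiquitinase of the BRCA1-A complex, and its 17-bp exon had a PSI of 0.14 in control and 0.96 with BRG1-wt (replicate 1). In PTS, which encodes an enzyme of tetrahydrobiopterin synthesis, the 23-bp exon 3 went from 0.19 to 0.91 (replicate 2), and in PLSCR1, a phospholipid scramblase gene, a 26-bp exon went from 0.23 to 0.87 (replicate 2). The greatest decreases were those of COMMD6, a COMM domain protein gene (12 bp, 0.78 to 0.06), the growth factor gene NRG2 (59 bp, 0.71 to 0.04) and the neurotrophic factor gene CDNF (44 bp, 0.81 to 0.23), all in replicate 1. The host genes differ in level: the base mean in the BRG1-wt table was 1976 for BRCC3 and 102 for CDNF.

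For BRG1-mut, 128 short exons were listed, among 1165 exons of any length (39.2% of all). PSI was higher for 69 and lower for 59, a share of 53.9% higher against 56.7% over all exons. Both replicates listed 7 short exons (5.47%, against 12.3% of all exons of the group). Of these 7, 4 moved in one direction, and in each of these 4 the control and BRG1-mut values did not overlap. Over all exons listed in both replicates of BRG1-mut, 92.3% moved in one direction and 89.5% did not overlap.

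These 4 exons behaved alike in both replicates. CKAP2L, which encodes a protein of the mitotic spindle, had a 52-bp exon 3 at 0.86 and 0.82 in control and at 0.98 and 0.97 with BRG1-mut, a mean change of 0.135 ± 0.0212 (SD, n = 2). SELENOF, a selenoprotein of the endoplasmic reticulum, had 0.83 and 0.86 in control and 0.91 and 0.91 with BRG1-mut for its 50-bp exon 4. In SAR1A, the GTPase that starts COPII coat assembly, the 37-bp exon 2 (chromosome 10 from 71914844 to 71914880) was at 0 in both controls and at 0.03 and 0.02 with BRG1-mut. The fourth exon, 38 bp within the locus named RP11-152F13.7 (chromosome 15 from 82970439 to 82970476), was at 0.96 and 0.94 in control and at 0.54 and 0.50 with BRG1-mut. It does not coincide with an annotated exon, and its gene, a pseudogene, had a low base mean, 29.8. In BRM-wt replicate 2 the same exon was at 0.64. Exons of 38 bp with the same GC content (55.3%) were listed in RP11-152F13.3, also a pseudogene, and in a non-coding gene (chromosome 15 from 83145986 to 83146023), so reads may be shared. The RP11-152F13.3 exon was at 0.47 in control replicate 2, 0.13 with BRG1-mut, 0.88 with BRM-wt and 0.87 with BRM-mut. The exon of the non-coding gene went from 0.68 to 0.40 with BRG1-wt (replicate 1) and from 0.50 to 0.08 with BRG1-mut (replicate 2).

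The 3 that moved in opposite directions in BRG1-mut were PHB2, ECHDC1 and HNRNPA1. PHB2 went from 0.88 to 0.01 in replicate 1 and from 0.01 to 0.92 in replicate 2, so that each BRG1-mut library lay close to the control of the other replicate. ECHDC1, a metabolic proofreading enzyme gene, had a 38-bp untranslated exon at 0.07 in control and 0.315 with BRG1-mut in replicate 1, and at 0.48 and 0.10 in replicate 2. HNRNPA1, a splicing repressor gene, had a 60-bp exon with values of 0.05 and 0.10 and then 0.12 and 0.05.

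In 1 replicate of BRG1-mut only, the 15-bp exon 15 of BBS9, a subunit of the BBSome of cilia, had a PSI of 0.10 in control and 0.85 with BRG1-mut. The 58-bp exon of CNOT2, a scaffold subunit of the CCR4-NOT deadenylase, went from 0.19 to 0.85, and the PLSCR1 exon from 0.23 to 0.85. The largest decreases were in NRG2 (0.71 to 0.04), RBM45 (40 bp, 0.83 to 0.16) and TSGA10 (56 bp, 0.78 to 0.18). NRG2 and PLSCR1 were also among the largest changes of BRG1-wt, against the same control libraries.

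For BRM-wt, 131 short exons were listed, among 1461 exons of any length (49.2% of all). PSI was higher for 65 and lower for 66, so 49.6% were higher, against 52.5% over all exons. The group had the most short exons listed in both replicates, 11, and the fewest with one direction, 1. These 11 were 8.40% of its short exons, against 19.4% of all exons listed for it. Over all exons listed in both replicates of BRM-wt, 5.30% moved in one direction and 4.95% did not overlap.

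VPS29 was that exon, at 0.55 and 0.53 in control, 0.41 in BRM-wt replicate 1 and 0 in replicate 2, a mean change of -0.335 ± 0.276 (SD, n = 2). The sizes in the 2 replicates differed by more than the smaller of them.

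In the other 10 exons the replicates went in opposite directions. In HNRNPUL1, which encodes an hnRNP U-like protein, the 36-bp coding exon 14 (chromosome 19 from 41811737 to 41811772) had a PSI of 0.35 in control and 0.93 in BRM-wt in replicate 1, and of 0.63 and 0.27 in replicate 2. In MTHFD2L, a mitochondrial folate enzyme gene, a 34-bp exon had 0.34 and 0.81, and then 0.64 and 0.26. In ASNS, the asparagine synthetase gene, an untranslated 36-bp exon had 0.28 and 0.67, and then 0.47 and 0.17. In DAP, a 43-bp exon had 0.67 and 0.99, and then 0.95 and 0.44. DIAPH2, ALDOA (52 bp, a glycolytic enzyme gene) and MYL6 were likewise higher in replicate 1 and lower in replicate 2. IFT20, an intraflagellar transport gene, went the other way for an untranslated 36-bp exon, from 0.58 to 0.26 and from 0.49 to 0.95. IMPDH1, an enzyme of guanine nucleotide synthesis, went from 0.88 to 0.57 and from 0.68 to 0.92 for a 60-bp exon, and TPD52L2 from 0.85 to 0.76 and from 0.77 to 0.85. In 10 of the 10, BRM-wt was higher in the replicate whose control was lower, and the controls were 0.03 to 0.39 apart with a median of 0.195. The same held for all 22 opposite pairs of replicates over the 4 groups. The control value is part of each change, and these pairs were picked by opposite changes, so such counts are not independent of the controls. The part of the control libraries in these directions was not tested.

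Large changes in 1 replicate of BRM-wt included P4HA1, a collagen prolyl hydroxylase gene, whose 54-bp exon 11 (chromosome 10 from 74776604 to 74776657) had a PSI of 0.98 in control and 0.19 with BRM-wt. The exon of AGAP9 went from 0.92 to 0.17, in a gene of a family of near-identical copies with a base mean of 37.7, and that of SUSD1 from 0.77 to 0.20. Higher values were seen in ARFIP2 (31 bp, 0.18 to 0.90), DTNB (21 bp, 0.04 to 0.74) and ITPRID2 (54 bp, 0.09 to 0.76). DTNB encodes a dystrobrevin, a partner of dystrophin, and its 21-bp exon 16 is coding and in frame, whereas the ARFIP2 and ITPRID2 exons do not coincide with annotated exons.

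For BRM-mut, 118 short exons were listed, among 927 exons of any length (31.2% of all). PSI was higher for 55 and lower for 63, so 46.6% were higher, against 49.1% over all exons. Both replicates listed 7 short exons (5.93%, against 5.29% of all exons of the group). Of these 7, 4 moved in one direction, all towards higher PSI, and their values did not overlap. The shares over all exons listed in both replicates were 57.1% for one direction and 46.9% without overlap.

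IMMT encodes mitofilin, the core of the complex that shapes mitochondrial cristae. Its 15-bp exon 11 was at 0.56 and 0.63 in control and at 0.85 and 0.83 with BRM-mut, a mean change of 0.245 ± 0.0636 (SD, n = 2), which was larger than the 0.07 between the controls. In BRM-wt replicate 1 the same exon was at 0.24, below both controls. SBNO1 had 0.02 and 0.07 in control and 0.34 and 0.23 with BRM-mut for a 44-bp exon that does not coincide with an annotated exon (chromosome 12 from 123842356 to 123842399). PHB2 was at 1.00 and 0.99 with BRM-mut, above controls that were themselves 0.87 apart. ZNF410, a zinc finger protein gene, had for its 51-bp exon 4 (chromosome 14 from 74361062 to 74361112) values of 0.01 and 0 in control and of 0.04 and 0.04 with BRM-mut.

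Of the 3 exons with opposite directions, CBWD5 (60 bp) had 0.44 and 0.91 in control and BRM-mut of replicate 1 and 0.85 and 0.31 in replicate 2. It belongs to a family of near-identical genes, so its reads may be shared. RPL41 is given above, and PNISR (54 bp) had 0.72 and 0.58, and then 0.61 and 0.74.

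In 1 replicate of BRM-mut only, the largest decreases were in COMMD6 (0.89 to 0.09, replicate 2), MICU3, a regulator of mitochondrial calcium uptake (32 bp, 0.82 to 0.10, replicate 1), and RBM45 (0.83 to 0.16, replicate 2). The largest increases were in PTS (0.19 to 0.82), an untranslated 51-bp exon of the receptor gene ERBB2 (0.32 to 0.86) and the 47-bp exon 4 of SNRPA1, which encodes a spliceosomal protein (0.15 to 0.68). COMMD6 was low in both groups in which it was listed, in different replicates with different controls: 0.06 in BRG1-wt against 0.78 in control replicate 1, and 0.09 in BRM-mut against 0.89 in control replicate 2.

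**Figure D2:**
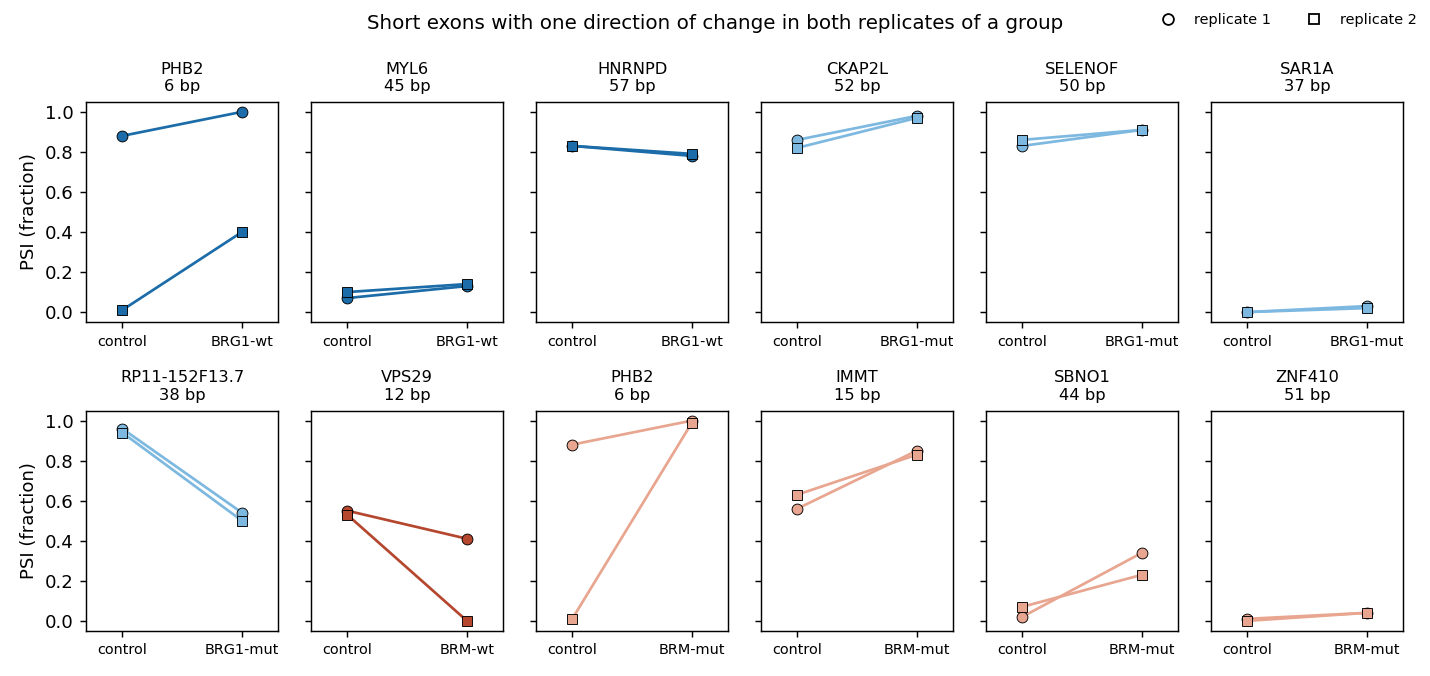
PSI (vertical axis, fraction) in control and ATPase libraries for each short exon with one direction of change in both replicates of a group. Each line joins the control and the ATPase library of a replicate (circles replicate 1, squares replicate 2). HNRNPD, MYL6, SELENOF, SAR1A and ZNF410 moved by 0.08 or less in each replicate, and the PHB2 lines start 0.87 apart.

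**Figure D3:**
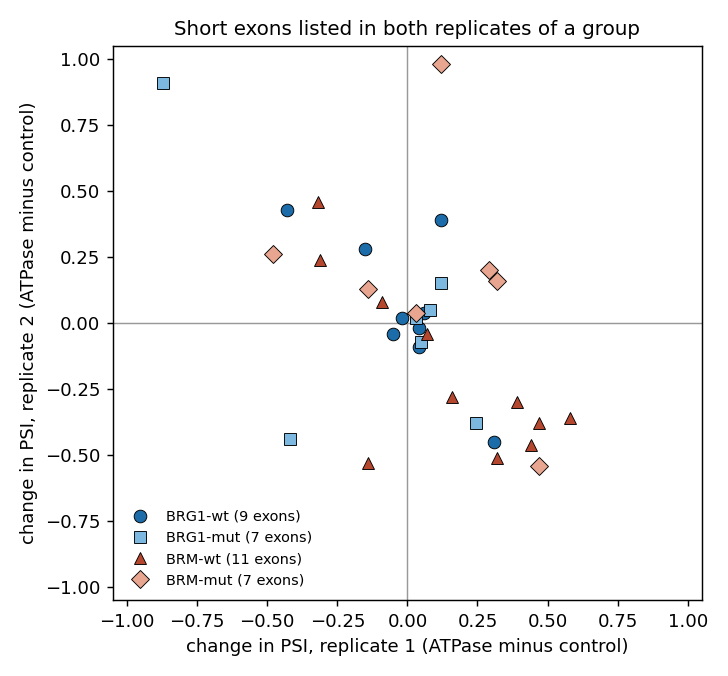
Change in PSI (ATPase minus control) in replicate 1 (horizontal axis) against replicate 2 (vertical axis) for short exons listed in both replicates of a group. Points at the upper right and lower left moved in one direction. Of the 11 BRM-wt triangles, 10 lie in the upper left or lower right, against 6 of 9 for BRG1-wt, 3 of 7 for BRG1-mut and 3 of 7 for BRM-mut.

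Over all groups together, 51 short exons were listed in at least 1 table of each replicate. Of these, 19 moved in one direction in every table (37.3%, against 32.7% of the 615 exons of any length). In 27 (52.9%, against 46.2% of the 615), every replicate 1 table went one way and every replicate 2 table the other. The remaining 5 were mixed, as were 130 of the 615. The control libraries of the 19 differed by a median PSI of 0.04, and those of the 27 by a median of 0.155. Over all exons sorted in this way the medians were 0.05 and 0.20. The control values are part of the changes by which the exons were sorted, so these medians are not independent of the sorting. Over the 51, the median gap between the 2 controls was 0.11, and it was at most 0.1 in 24 and at least 0.5 in 3. For exons of 61 bp or more the median gap was 0.14. All tables of a replicate share 1 control library, so directions in different groups of the same replicate are not independent of each other.

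The exons listed for all 4 groups, besides PHB2, RPL41, DIAPH2 and VPS29, were ARMC10, YME1L1 and CORO1C, named after their values were seen. The 33-bp exon of ARMC10 had a PSI of 0.90 in control replicate 1 and, in the same replicate, of 0.56 with BRG1-wt, 0.53 with BRG1-mut, 0.58 with BRM-wt and 0.48 with BRM-mut. The 55-bp exon of YME1L1, a mitochondrial protease gene, was at 0.08 in that control and between 0 and 0.01 in the 4 ATPase libraries. The 23-bp exon of CORO1C, a coronin gene, was at 0.02 in control replicate 2 and at 0 in all 4 ATPase libraries of replicate 2. None of the 3 was listed in the other replicate, and the part of the shared control library in these values was not tested. PHB2, in contrast, had changes of 0.12, -0.87 and 0.12 in BRG1-wt, BRG1-mut and BRM-mut against the same control of replicate 1.

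Of the 51 exons of 30 bp or less, 44 are coding in an annotated transcript, and 37 of these 44 (84.1%) are multiples of 3. Their number listed per group was small, between 19 and 25. The share with higher PSI was 62.5% in BRG1-wt (15 of 24), 72.7% in BRG1-mut (16 of 22), 63.2% with BRM-wt (12 of 19) and 68.0% with BRM-mut (17 of 25). Over all exons listed these shares were 55.9%, 56.7%, 52.5% and 49.1%, as given above, and over the exons of 31 to 60 bp they were 39.8%, 50.0%, 47.3% and 40.9%. The median control PSI of these exons was low, 0.20, 0.275, 0.19 and 0.15 in the 4 groups.

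RTRAF, which encodes an RNA-binding subunit of the tRNA ligase complex, holds an exon of 3 bp (GAG). It was listed in 3 tables, all of replicate 2, at 0.49 in control, 0.92 for BRG1-wt, 0.93 for BRG1-mut and 0.87 for BRM-wt. The other 3-bp exon lies in CLASP1, a microtubule plus-end protein gene, and had 0.29 in control and 0.80 in BRM-mut (replicate 1). DST, a giant cytoskeletal linker, had an 18-bp exon that was nearly absent from both controls (0.06 and 0.02) and was at 0.51 in BRG1-wt replicate 1, 0.28 in BRG1-mut replicate 2 and 0.46 in BRM-mut replicate 2. MACF1, its relative, had a 9-bp exon 66 with 0.05 in control and 0.51 in BRG1-wt (replicate 1). BRCC3 was at 0.14 in control replicate 1 and at 0.96, 0.70 and 0.60 in BRG1-wt, BRG1-mut and BRM-mut. PTS was at 0.19 in control replicate 2 and at 0.91, 0.76 and 0.82 in BRG1-wt, BRM-wt and BRM-mut. USO1, a Golgi tether gene, stayed between 0 and 0.04 in every library in which its 21-bp exon was listed. Among the 13 exons of this size listed in 3 or more tables, the range of PSI over the libraries had a median of 0.53 and reached 0.99 in PHB2, and among the 36 exons of 31 to 60 bp it had a median of 0.374 and reached 0.75.

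The direction of a listed change went with the PSI in control. Short exons with a control PSI below 0.5 were higher in 60.6% of cases in BRG1-wt (40 of 66), 69.4% in BRG1-mut (50 of 72), 69.0% in BRM-wt (49 of 71) and 62.5% in BRM-mut (45 of 72). Over all exons with such a control PSI the shares were 68.5%, 71.2%, 71.8% and 65.1%. Short exons with a control PSI of 0.5 or more were higher in 21.7% of cases in BRG1-wt (10 of 46), 33.9% in BRG1-mut (19 of 56), 26.7% in BRM-wt (16 of 60) and 21.7% in BRM-mut (10 of 46). Over all exons with such a control PSI the shares were 41.5%, 40.8%, 32.3% and 33.0%. The control value is part of each change, so a split by control PSI is not independent of the direction. A PSI is also bounded by 0 and 1. The part of either in the shares was not tested.

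**Figure D4:**
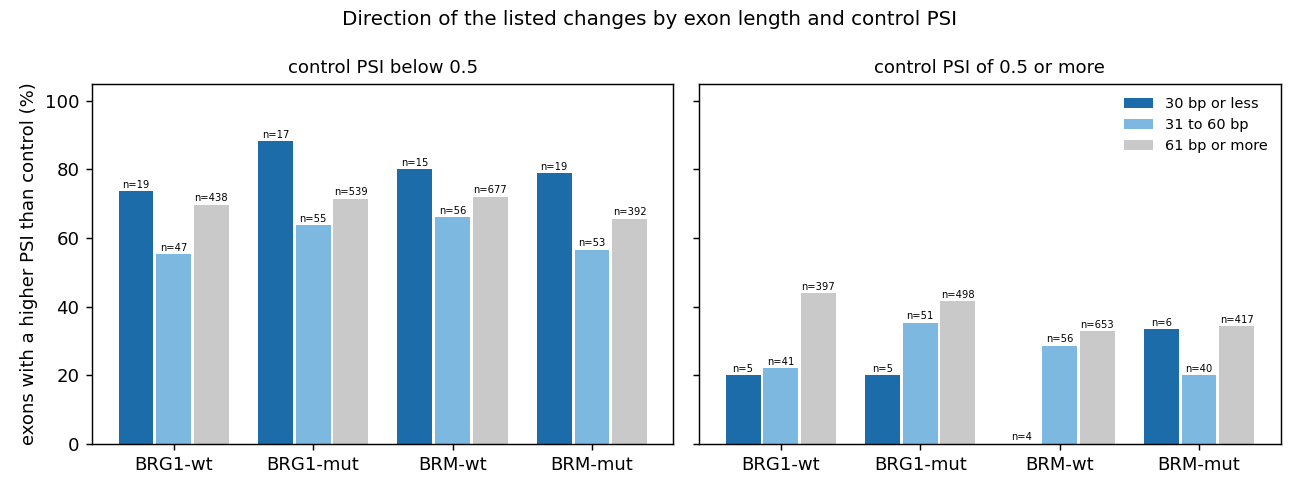
Share of listed exons with a higher PSI than control (vertical axis, percent) in each ATPase group, for exons of 30 bp or less, 31 to 60 bp and 61 bp or more, with the number of exons above each bar. Left, exons with a control PSI below 0.5. Right, exons with a control PSI of 0.5 or more, where exons of 30 bp or less number only 4 to 6 per group.

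In the control libraries themselves, the short exons listed in replicate 1 had a median PSI of 0.38 (187 exons, quartiles 0.144 and 0.775), and those of replicate 2 also had a median of 0.38 (203 exons, quartiles 0.125 and 0.715). Exons of 61 bp or more had medians of 0.48 and 0.50. A PSI of 0.1 or less was found for 38 short exons in replicate 1 (20.3%) and 42 in replicate 2 (20.7%). A PSI of 0.9 or more was found for 18 (9.63%) and 19 (9.36%). Among exons of 61 bp or more, 14.6% and 15.3% were at 0.1 or less and 14.0% and 16.2% at 0.9 or more.

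By their place in the annotation, 326 of the 339 short exons (96.2%) have the coordinates of an annotated exon. Wholly coding in at least 1 transcript were 218 (64.3%), 35 were partly coding, 41 untranslated, 32 in non-coding transcripts and 13 not annotated as such. Among exons of 61 bp or more, 45.2% were wholly coding. A length that is a multiple of 3 was found in 184 short exons (54.3%), against 41.8% of the longer ones, and in 67.0% of the coding short exons (146 of 218) against 51.8% of the coding longer ones. Splice sites with AG before and GT after the exon flank 332 short exons (97.9%) and 97.8% of longer ones. The introns around the short exons had median lengths of 1570 bp upstream and 2226 bp downstream.

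The letters TGC, part of the intronic element through which SRRM4 acts, occur on the strand of the gene in the 20 bases before 98 of the 339 short exons (28.9%) and before 20 of the 51 exons of 30 bp or less (39.2%). They occur before 31.2% of exons of 61 bp or more. The match was sought on the strand of the gene only, whose sequence is that of the RNA, as the element is one of RNA.

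The GC content of short exons had a median of 46.7%, against 50.9% in exons of 61 bp or more. In BRG1-mut, short exons with higher PSI had a median of 50.0% GC and those with lower PSI 47.3%, whereas exons of 61 bp or more had 58.8% and 49.2%. For BRG1-wt, the short exons had 48.2% and 45.8% and the longer ones 55.1% and 48.4%. For BRM-wt, the short exons had 48.9% and 45.5% and the longer ones 53.1% and 53.9%, and for BRM-mut the short exons had 45.3% and 46.5% and the longer ones 47.2% and 51.5%. Whether these medians differ was not tested.

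At the length limit, the 18 exons of 60 bp had a median absolute change of 0.195 and were higher in 16 of 30 listings, and the 15 exons of 61 bp had a median of 0.38 and were higher in 16 of 23.

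**Figure D5:**
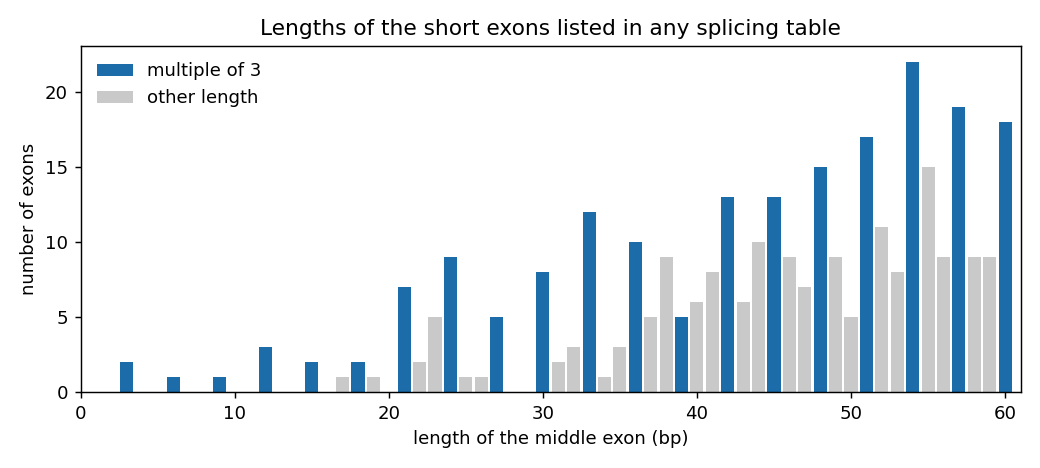
Number of short exons (vertical axis) at each length in bp (horizontal axis), with lengths that are multiples of 3 in blue and others in grey. The exons of 30 bp or less are mostly of the blue kind (40 of 51), and between 31 and 60 bp the blue kind makes up 144 of 288.

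Of 51 genes known for neural or muscle microexons, 20 had any listed exon and 9 had a short one (45.0% of the 20, in a list made of genes known for such exons). Of all 2266 genes with a listed exon, 328 had a short one (14.5%). Besides CLASP1, DST and MACF1, PPFIBP1, a liprin gene, had a 33-bp exon with 0.25 in control replicate 1 and 0.46 with BRG1-mut, 0.45 with BRM-wt and 0.45 with BRM-mut. The 24-bp exon of CLASP1 had 0.29 in control and 0.45 in BRG1-mut (replicate 2). CPEB4, a regulator of cytoplasmic polyadenylation, had 0.29 and 0.77 in control and BRG1-mut (replicate 2) for a 51-bp exon. Lower values were listed for PTPRS (48 bp, 0.19 to 0.05 in BRM-wt), LRRFIP2 (43 bp, 0.12 to 0.01 in BRG1-wt) and ITSN1, an endocytic scaffold gene (46 bp, 0.66 in control replicate 1, 0.48 in BRG1-wt and 0.46 in BRM-wt). In TPD52L2 the 60-bp exon was at 0.85 in control replicate 1 and at 0.78 with BRG1-wt, 0.77 with BRG1-mut and 0.76 with BRM-wt in that replicate.

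Of 62 splicing factor genes, 21 had any listed exon and 6 a short one (28.6%, against 14.5% of all genes with a listed exon). MBNL1, a regulator of muscle splicing that also regulates its own exons, had 3: a 36-bp exon 7 with 0.28 in control and 0.73 in BRG1-mut (replicate 1), a 49-bp exon with 0.04 in control and 0.22 in BRG1-wt (replicate 1), and a 54-bp exon 6 with 0.50 in control and 0.38 in BRM-wt (replicate 2). SRSF7, an SR protein gene, had a 36-bp exon with 0.88 in control and 0.82 in BRG1-wt (replicate 2). HNRNPH1 had exons of 60 and 51 bp that share an end, with 0.64 and 0.67, and 0.38 and 0.43, in control and BRG1-mut (replicate 2). HNRNPUL1 was also listed in BRG1-mut replicate 2, at 0.90 against 0.63 in control. HNRNPD was at 0.78 in BRM-mut replicate 2 against 0.83 in control, the same direction and size as in BRG1-wt.

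Of 48 genes of chromatin remodellers and histone modifying enzymes, 14 had any listed exon and 1 a short one (7.14%, against the same 14.5%). That was DPF2, a SWI/SNF subunit gene, whose 42-bp exon 7 had a PSI of 0.08 in control replicate 1 and 0.03 in both BRG1-mut and BRM-wt.

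The host genes of short exons had a median base mean of 2216 (averaged over the 4 expression tables), against 1520 for those of longer exons, and 317 of the 330 exons whose gene had a value were in genes at or above a base mean of 100. PHB2, RPL41 and DIAPH2, whose controls were 0.39 or more apart, had base means of 9530, 6532 and 1653, and VPS29, whose controls were 0.02 apart, had 4036. The part of sequencing depth in the PSI values was not tested.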

How the data were processed

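Polyadenylated RNA of 10 C33A libraries was sequenced, and the authors mapped the reads with TopHat 2.0.4 to GRCh37, counted genes with HTSeq 0.6.1 and ran MISO on pairs of 1 ATPase and 1 control library with the same replicate number. The deposited tables give PSI as a fraction with 2 decimals for exon events, as well as the Bayes factor, which served here only to check the threshold (lowest value 10.02). The authors' base mean, a score of gene level, is a DESeq2 mean over 4 libraries. The deposited fold changes and p-values, and a second copy of the BRG1-wt expression table, were not used. A read on the shortest exons crosses both of their junctions, so their PSI rests on how the aligner placed junction reads.

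Middle exons of 60 bp or less were kept, events with the same middle exon in a table were averaged, and a group's direction was that of the mean change over its tables. The paper discarded exons with opposite effects between replicates or between groups. It also dropped forms that share an end with a longer exon and have under 50% of its length. Neither filter was applied here, so opposite pairs and short forms were kept in the main results. Exons were matched by coordinates to GENCODE v44 on GRCh37, and exon numbers are those of an annotated transcript. Named were all short exons listed in both replicates, the 3 highest and 3 lowest changes among those listed in 1, exons in 5 or more tables, the shortest coding exons, and members of 3 gene lists. Members and lists were chosen with earlier results of these data known. No test was made. The steps were tested on simulated data. Python 3.11.15, pandas 2.3.3, numpy 2.4.6, pysam 0.24.0 and matplotlib 3.10.9 were used.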

Additional observations from a re-analysis of the deposited data

How the results depend on the processing

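No paired analysis was possible because no value comes from a fit that could take a replicate block, and the changes given are already differences within pairs of the same replicate number. With a limit of 30 bp, 51 exons were listed, and with 75 bp, 562. With the 30 bp limit, the shares with higher PSI moved to 62.5% with BRG1-wt, 72.7% with BRG1-mut, 63.2% with BRM-wt and 68.0% with BRM-mut. One direction in both replicates then held for 1, 0, 1 and 2 exons in these 4 groups, and values did not overlap for 0, 0, 1 and 2. Where only changes of 0.2 or more counted, one direction held for 1 exon each with BRG1-mut and BRM-mut. It held for 0 exons with BRG1-wt and 0 with BRM-wt, and the lack of overlap gave the same counts. At this limit the share with higher PSI was 54.3% for BRG1-wt, 56.4% for BRG1-mut, 51.2% for BRM-wt and 49.3% for BRM-mut. With all changes counted these shares were 44.6%, 53.9%, 49.6% and 46.6%, so BRG1-wt and BRM-wt changed sides of 50%. Neither shares nor counts over all exons were taken at this limit. Without 1 replicate, the share with higher PSI ranged from 35.7% to 51.9% in BRG1-wt, 52.3% to 57.1% in BRG1-mut, 45.6% to 52.7% in BRM-wt and 44.1% to 54.5% in BRM-mut, so the side of 50% changed with the replicate in 3 groups. Annotated exons only, short forms left out, the event with the largest change and a base mean of at least 100 left every count within 1.5 times and every share within 1 SD of its replicates. The reads behind a PSI are unknown, and 2 replicates that share controls across groups limit every comparison.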
